A study of Mus musculus with 2 samples.

Results

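The detected pseudogenes were the 188 mouse genes whose annotated transcripts all carry a biotype containing the word pseudogene and whose level was at least 1 TPM (a level scaled by length and to a fixed total per library) in both libraries of the alignment-based gene table. They made up 1.44% of 13029 annotated pseudogenes, and 9297 genes of any kind passed the same minimum. Since they were chosen by these TPM values, levels and ratios that contain them are given as a description, with no test other than that between replicates. The RNA was the cytosolic fraction of primary bone marrow-derived macrophages from C57BL/6J mice, whose sex and age were not collected. Every culture received 100 ng/ml Lipid A, the part of bacterial endotoxin that Toll-like receptor 4 senses, for 12 hours, then a washout of 12 hours, then 100 ng/ml Lipid A again for 75 minutes. Ribosomal RNA was depleted before library construction, which started from 1 µg and gave sizes between 250 and 400. There was 1 group of 2 biological replicates, both listed under the same donor code, so differences between them may be partly technical. No untreated or nuclear library was analysed here.

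Pseudogenes are gene copies annotated as unable to make the parent's full protein. Processed pseudogenes arise when an mRNA is reverse-transcribed and inserted elsewhere in the genome, and strongly expressed housekeeping genes, those of ribosomal proteins above all, have left many such copies. Unprocessed pseudogenes are duplicated stretches of DNA, and nuclear insertions of mitochondrial DNA are a special kind. A read from a stretch that copy and parent share cannot be placed on either by its bases, so each quantification method divides such reads by its own model.

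Each library was deposited with 2 estimates of its transcripts' abundance. The alignment-based table was derived from alignments to the transcriptome and held 64181194 expected counts in replicate 1 and 49424611 in replicate 2. The est_counts table was derived from the reads and a transcript index and held, summed per gene, 73411097 and 61270945 estimated counts. All 8 macrophage markers were detected, with mean levels from 30.8 to 3014 TPM, while 1 of 18 markers of other lineages was detected, none exceeded 3.28 TPM, and 5 were at 0 in both libraries. Protein-coding genes took 29.9% and 26.2% of all TPM in the alignment-based table, against 17.8% and 11.6% in the est_counts table, so a TPM is not the same amount in both. The genes Rn7s1 and Rn7s2 together took 62.9% and 60.3% in the alignment-based table and 29.9% and 19.0% in the est_counts table. Over the 9297 detected genes, the median log2 ratio of alignment-based over est_counts TPM, with a pseudocount of 0.1 on each, was 0.94. Ratios called rescaled use TPM recomputed so that protein-coding genes alone fill the fixed total, which brings this median to 0.01.

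A few stretches of sequence show how little separates copy and parent in many pairs. They are transcript sequences of GENCODE M21 on build mm10, written 5′ to 3′, and capitals mark the bases that differ within a pair. Substitutions give the parent's base, the position counted from the 5′ end of the pseudogene transcript, and the pseudogene's base. The pair Gm28661 (chr1:24615505-24615565, minus strand) and mt-Co2 (chrM:7013-7073, plus strand), the mitochondrial gene of cytochrome c oxidase subunit 2, is shown because the copy is identical over its whole 681 bases. Gm29216 (chr1:24616128-24616188, minus strand) has A13T relative to mt-Co1 (chrM:6390-6450, plus strand), and Gm28438 (chr1:24613059-24613119, minus strand) has T3C relative to mt-Nd3 (chrM:9459-9519, plus strand). Mpc1-ps (chr12:110858824-110858884, minus strand) has G41A relative to coding exon 1 of Mpc1 (chr17:8283901-8283961, plus strand), a subunit gene of the mitochondrial pyruvate carrier. Gm4294 (chr12:12023594-12023654, plus strand) has G609A relative to coding exon 4 of the ribosomal protein gene Rpl15 (chr14:18269014-18269074, minus strand). Gm19253 (chr6:49071659-49071779, plus strand) is a more diverged copy, with 9 differing bases in the 121 shown, of Mrps36 (exons 1 to 3, with introns between them, at chr13:100739155-100744539, minus strand).
Gm28661: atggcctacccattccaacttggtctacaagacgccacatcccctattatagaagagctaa
mt-Co2: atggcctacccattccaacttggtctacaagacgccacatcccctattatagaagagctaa
Gm29216: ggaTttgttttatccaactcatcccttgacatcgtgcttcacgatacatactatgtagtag
mt-Co1: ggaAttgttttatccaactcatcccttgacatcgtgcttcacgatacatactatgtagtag
Gm28438: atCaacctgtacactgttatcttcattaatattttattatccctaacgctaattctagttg
mt-Nd3: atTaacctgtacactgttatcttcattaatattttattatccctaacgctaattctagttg
Mpc1-ps: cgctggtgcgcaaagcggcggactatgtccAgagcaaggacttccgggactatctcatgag
Mpc1: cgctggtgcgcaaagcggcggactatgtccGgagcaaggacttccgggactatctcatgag
Gm4294: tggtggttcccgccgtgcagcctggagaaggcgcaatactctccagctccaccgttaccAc
Rpl15: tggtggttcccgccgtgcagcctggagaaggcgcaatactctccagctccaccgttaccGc
Gm19253: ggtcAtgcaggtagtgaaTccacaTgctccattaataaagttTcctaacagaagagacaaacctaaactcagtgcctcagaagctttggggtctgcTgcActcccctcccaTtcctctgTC
Mrps36: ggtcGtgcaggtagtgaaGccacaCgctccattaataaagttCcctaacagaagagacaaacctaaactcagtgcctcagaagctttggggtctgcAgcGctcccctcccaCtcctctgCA

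Most of the detected pseudogenes were processed copies. By biotype, 164 were processed, 18 unprocessed, 4 transcribed processed, 1 polymorphic and 1 of the plain class pseudogene, beside 9940 processed and 2642 unprocessed pseudogenes in the whole annotation. They lay on 20 chromosomes, with 18 each on chromosomes 1 and 3. Levels were low. The median was 4.07 TPM in replicate 1 and 3.715 in replicate 2, 35 reached 10 TPM in both libraries, and 5 reached 100 TPM. The detected pseudogenes together held 0.208% and 0.255% of the expected counts in replicates 1 and 2, which was 90.8% and 91.5% of the expected counts on all annotated pseudogenes. A further 52 detected genes have pseudogene transcripts among others and are not included.

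Levels near the threshold ran on without a gap. Just inside were Gm5831 with 1.00 and 1.40 TPM in replicates 1 and 2, Gm10774 with 2.34 and 1.04, Gm4294 with 6.65 and 1.04 and Gm7887 with 1.06 and 1.05. Just outside were Gm7332 with 0.98 and 1.60 TPM, Gm9892 with 0.98 and 1.05, Gm19026 with 1.16 and 0.97 and Gm2810 with 1.36 and 0.97. The same TPM stands for very unlike counts, because it is scaled by length: Gm10774, 204 bases long, passed with 5.98 and 2.05 expected counts, while Gm19026, 4530 bases long, did not pass with 563 and 384. In all, 55 pseudogenes reached 1 TPM in 1 library only, and 11133 had no expected count in either.

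In sequence the detected pseudogenes were much closer to other genes than annotated pseudogenes are in general. A protein-coding transcript that matched with at least 80% identity over at least 50% of the copy, its parent, was found for 182 of them (96.8%) and for 9523 of all annotated pseudogenes (73.1%). For the 43 whose symbol names a parent, the match was that gene in all 43. The median identity to the parent was 99.8%, against 91.9% for all pseudogenes with a parent. A perfect match over the whole length was found for 62 (33.0%), against 216 (1.66%) of all. Of the 31-base words in a transcript, the median share found in no other gene was 3.66% in the detected pseudogenes and 78.6% in all. Lengths were similar, with medians of 498 and 556 bases.

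Copies of mitochondrial genes held the top of the list. Gm28661 stood at 332 and 581 TPM in replicates 1 and 2, Gm28437, a copy of the cytochrome c oxidase subunit 3 gene mt-Co3, at 217 and 382, and Gm10925, a copy of the ATP synthase subunit gene mt-Atp6, at 222 and 338. Gm29216, which matches the 3′ part of the oxidase subunit 1 gene mt-Co1, stood at 169 and 252 TPM, so all of these were higher in replicate 2. Gm12338, a processed copy of Cox7c, a nuclear gene of the same oxidase, stood at 246 and 122 TPM and was higher in replicate 1. It is 192 bases long and identical to Cox7c, and its TPM came from 471 and 182 expected counts. In the est_counts table it stood at 48.8 and 7.34 TPM. The 6 mitochondrial copies made up 31.8% and 52.3% of the detected pseudogenes' summed TPM, and 55 copies of ribosomal protein genes made up 28.5% and 19.0%.

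Below them came copies of genes with housekeeping roles. Gm7536, a copy of Rpl27a, stood at 140.4 and 85.3 TPM, Rpl31-ps8 at 124.5 and 69.6 and Rps23-ps1 at 115 and 75.0. Tpt1-ps3, a copy of the gene of translationally controlled tumour protein, stood at 99.65 and 58.8 TPM, and Gm10123, a copy of the cyclophilin A gene Ppia, at 68.7 and 59.9. Each of these is identical to its parent over its whole length. Gm12481, a copy of Serf2, stood at 57.0 and 42.0 TPM and Rpl36a-ps2 at 52.1 and 29.5. Of the 20 highest, Gm12250 alone had no parent.

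**Figure D1:**
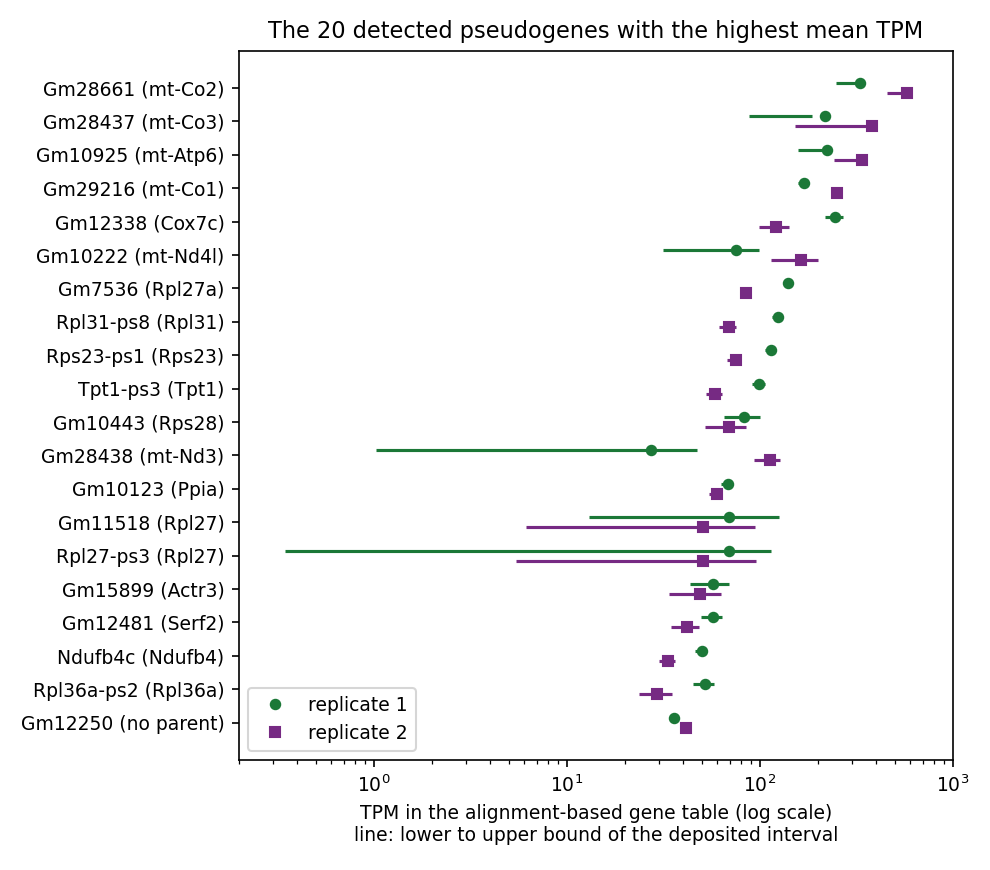
TPM of the 20 highest detected pseudogenes in the alignment-based table on a log axis, replicates 1 and 2 as separate symbols, with the parent in brackets and lines for the deposited interval of each value. Gm28661 leads at 332 and 581 TPM, and the interval of Rpl27-ps3 in replicate 1 runs from 0.35 to 114 TPM.

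The deposited TPM intervals were wide for many copies. The lower bound was under 1 TPM in at least 1 library for 44 of the detected pseudogenes (23.4%), against 1.92% of 8807 detected protein-coding genes. In 18 the upper bound was over 10 times the lower. Gm11518 and Rpl27-ps3 are copies of Rpl27 with identical transcripts, and each was given 69.6 and 50.7 TPM, with intervals in replicate 1 of 13.0 to 126 and 0.35 to 114 TPM. Gm14536 and Gm15027, another identical pair, were each given 12.4 and 8.87 TPM from 2.69 and 1.70 expected counts. The TPM of Gm28661 lay above its own interval, which was 249 to 312 TPM in replicate 1 and 455 to 552 in replicate 2. A value above its interval occurred for 2.66% of detected pseudogenes and 1.98% of detected protein-coding genes.

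The 6 copies of mitochondrial genes stand next to one another on the minus strand of chromosome 1 (chr1:24612407-24616197) and were the detected ones among 25 annotated pseudogenes with a mitochondrially encoded parent. Gm10925 had 11412 and 13960 expected counts in the alignment-based table, against 204 and 1007 in the est_counts table. Its parent mt-Atp6 had 859 and 1469 against 12802 and 15642, so the tables placed the pair's reads on opposite genes. The pseudogene's share of the pair was 93.0% and 90.5% in the alignment-based table and 1.57% and 6.05% in the est_counts table, while the pair's sum was 12271 and 15429 against 13006 and 16650 counts.

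For cytochrome c oxidase subunit 2 both tables gave most counts to the copy. Gm28661 had 17149 and 24173 expected counts and 17511 and 23238 est_counts, and mt-Co2 itself was listed at 0 and 213 expected counts and 305 and 2506 est_counts. A gene that respiring cells use was thus listed at 0 in 1 library of the alignment-based table. Gm28437 held 86.7% and 86.0% of its pair with mt-Co3 in the alignment-based table and 68.0% and 75.4% in the est_counts table. Gm10222, identical to the complex I subunit gene mt-Nd4l, held 51.4% and 57.8% of its pair in the alignment-based table and was listed at 0 in both est_counts libraries. It also overlaps an exon of Gm28439 on the same strand, by 4 bases.

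Copies with 1 mismatch in the aligned part covered unlike parts of their parents, so their shares of the pair cannot be compared. Gm29216 is 492 bases long and matches only the 3′ part of mt-Co1, whereas Gm28438 matches mt-Nd3 from its first base. Gm29216, with A13T in the 98.2% of its length that aligned to mt-Co1, held 7.80% and 6.62% of the pair in the alignment-based table and 9.40% and 7.19% in the est_counts table, so all 4 values were close. Gm28438, with T3C, held 33.9% and 79.0% of its pair with mt-Nd3, another complex I subunit gene, in the alignment-based table and 54.7% and 44.5% in the est_counts table, and its replicates were far apart in the alignment-based table. The 7 mitochondrial genes without a detected copy had nearly equal counts in both tables, with log2 ratios of alignment-based over est_counts from -0.15 to -0.06 in replicate 1 and from -0.19 to -0.08 in replicate 2.

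**Figure D2:**
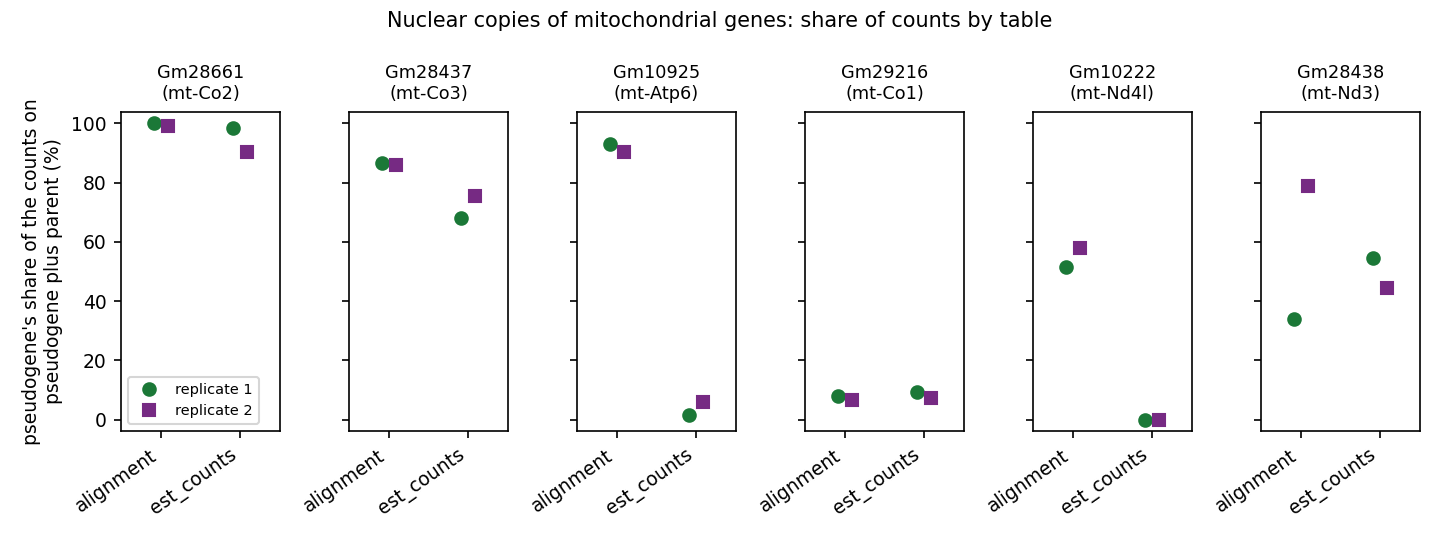
Share (percent) of the counts on pseudogene plus parent that went to the pseudogene, for the 6 nuclear copies of mitochondrial genes, by table and replicate. Gm10925 holds 93.0% and 90.5% in the alignment-based table and 1.57% and 6.05% in the est_counts table, and the 4 shares of Gm29216 lie close together.

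Over all 188 detected pseudogenes, the alignment-based level was mostly the higher one. The median log2 ratio of alignment-based over est_counts TPM was 3.24 (3.02 in replicate 1 and 3.29 in replicate 2, SD 0.19, n = 2). At least 2-fold higher in both libraries were 121 of them, and 5.34% of all detected genes. At least 2-fold lower were 2, Rpl28-ps1 and Gm13835, and 0.183% of all detected genes. After rescaling, the median was 3.02, 106 were at least 2-fold higher (2.24% of all detected genes) and 11 at least 2-fold lower (0.559%). These ratios contain the values that chose the genes, so nothing is read from the counts against those percentages. Of the 188, 36 were listed at 0 est_counts in both libraries.

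The direction depended on which table chose the genes. By est_counts TPM, 89 pseudogenes reached 1 TPM in both libraries. Of these, 69 were also detected in the alignment-based table, which is 36.7% of the 188 and 77.5% of the 89. For the 89 the rescaled median was -0.59, with 3 at least 2-fold higher and 31 at least 2-fold lower in the alignment-based table. With a rescaled TPM of at least 1 as the rule, 373 pseudogenes passed in the alignment-based table and 258 in the est_counts table. The 139 that passed in both were 37.3% of the alignment-based list and 53.9% of the est_counts list. Of the 492 that passed in either, 228 were at least 2-fold higher and 116 at least 2-fold lower. Among the 106 detected pseudogenes with a mean of at least 10 counts in both tables, the rescaled median was 0.01, with 24 at least 2-fold higher and 11 at least 2-fold lower. Of all detected genes, 2.24% were at least 2-fold higher and 0.559% at least 2-fold lower after rescaling. Each set above was chosen with values of the tables compared, so nothing is read from its counts against these percentages. Summed over all annotated pseudogenes except Gm12895 and Gm12896, described further on, the shares of all counts were 0.229% and 0.279% in the alignment-based table and 0.239% and 0.232% in the est_counts table.

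**Figure D3:**
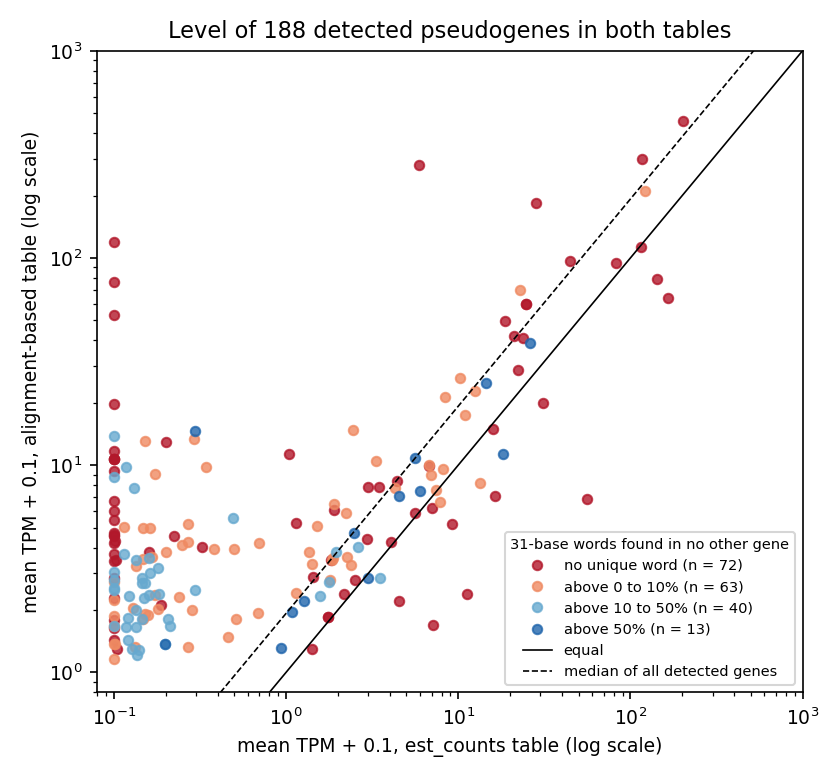
Mean TPM plus 0.1 of each of the 188 detected pseudogenes in the alignment-based and the est_counts table, both axes on a log scale, coloured by the share of 31-base words found in no other gene. The 36 listed at 0 in the est_counts table line up at 0.1 on its axis.

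The copies were also grouped by how much of their sequence was their own. The 13 with over 50% unique words had a median rescaled log2 ratio of -0.20, and 2 of them were at least 2-fold higher in the alignment-based table. The 40 with above 10 to 50% had a median of 4.32, and 35 were at least 2-fold higher. The 63 with above 0 to 10% had a median of 2.30, with 35 at least 2-fold higher. The 72 without a unique word had a median of 0.69, with 34 at least 2-fold higher, 8 at least 2-fold lower and 23 listed at 0 in both est_counts libraries. Of all detected genes, 2.24% were at least 2-fold higher and 0.559% at least 2-fold lower. All 4 medians and the counts contain the TPM that chose the genes. In the class of above 10 to 50%, 40 of 2339 annotated pseudogenes were chosen and 4 of these reached 1 TPM in both est_counts libraries, so no order of the classes is read from them.

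**Figure D4:**
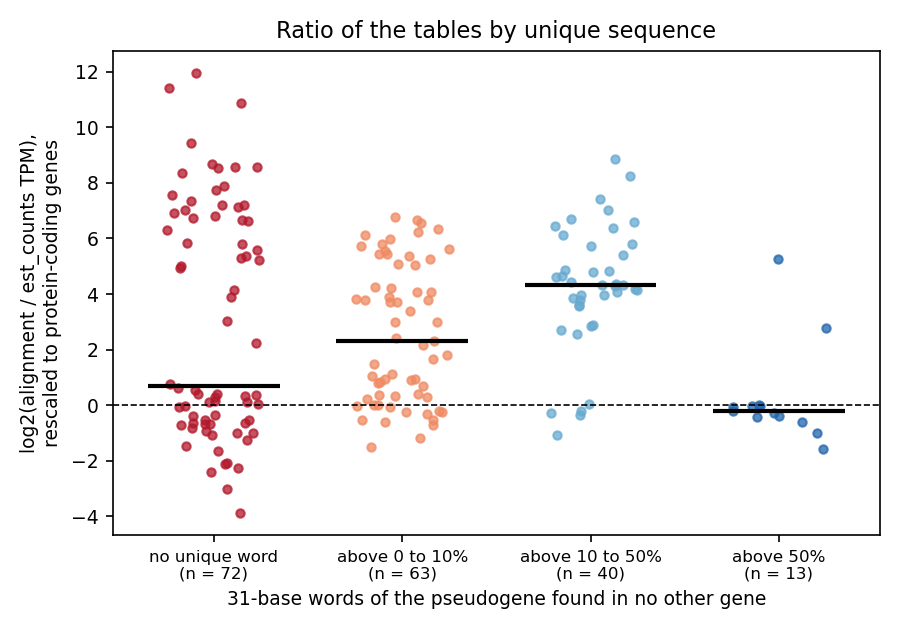
Rescaled log2 ratio of alignment-based over est_counts TPM (mean of 2 libraries) of each detected pseudogene, by the share of its 31-base words found in no other gene, with bars at the class medians. From no unique word to above 50% the medians are 0.69, 2.30, 4.32 and -0.20.

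Among copies with a mean of at least 10 counts in either table, 7 of the 8 with the largest ratios were listed at 0 in both est_counts libraries and so have no fold. Besides Gm10222 these were Rps6-ps4 with 1269 and 852 expected counts, Gm10698 with 448 and 281 (parent Tmed2, a cargo receptor of the secretory pathway), Gm15899 with 274 and 178 (Actr3, a subunit of the actin-nucleating Arp2/3 complex), Rps12l1 with 270.0 and 159, Mpc1-ps with 243 and 90.1 and Gm10443 with 241 and 154 (Rps28). Gm12715, a copy of the gamma-actin gene Actg1, had 1427 and 999 expected counts against 9.31 and 11.3 est_counts. Mpc1-ps had a G41A difference and 10.3% unique words, and was at 0 in the est_counts table all the same.

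At the other end, Rpl28-ps1 had 170.2 and 98.2 expected counts against 3287 and 1466 est_counts, and its parent Rpl28 had 10699 and 5008 against 8098 and 4061. Gm13835, a copy of the proteasome subunit gene Psma3, had 66.95 and 80.3 against 884 and 516. Gm10123 had 2080 and 1441 against 12083 and 7070, and Tpt1-ps3 3340 and 1568 against 13046 and 5014. These 4 are identical to their parents, as are the next 3. Gm20689, a copy of the membrane-traffic GTPase gene Rab8b, had 25.9 and 8.92 expected counts against 388 and 36.9 est_counts. Gm9762, a copy of the ubiquitin-conjugating enzyme gene Ube2d2a, had 166 and 149 against 979 and 619, and Gm10052, a copy of the RNA-binding protein gene Hnrnpa1, 128 and 181 against 717 and 714. The last of the 8, Gm19253, had 135 and 82.0 against 548 and 333 although 86.6% of its words are unique.

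Added up over a parent and all its annotated pseudogenes, the tables came close in nearly every family. Of 159 families with a detected pseudogene and a single best parent, 149 had a log2 ratio of summed counts within 0.25 of 0 in both libraries. For the parent alone, 139 families in replicate 1 and 137 in replicate 2 were within 0.25. Of 8807 detected protein-coding genes, 8466 and 8277 were within 0.25. The median of the family sums was -0.08 in replicate 1 and -0.11 in replicate 2, beside -0.10 and -0.13 for detected protein-coding genes, while for the detected pseudogenes alone it was 2.56 and 3.01. Pseudogenes held a median of 1.99% and 2.35% of a family's counts in the alignment-based table and 0.434% and 0.404% in the est_counts table. With shares this small most sums follow the parent, so their closeness says little about how reads were split. Their share was higher in the alignment-based table in both libraries in 107 families and lower in 41. Each family was included for a pseudogene chosen by alignment-based TPM, so no direction is read from these shares and counts. The copies of Gapdh, a glycolytic enzyme gene, held 4.32% and 5.52% against 0.510% and 0.889%, and those of Ppia 5.14% and 5.70% against 29.8% and 27.4%.

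The sum itself passed 2-fold in both libraries in 1 of the 159 families. Rpl12, a gene of the large ribosomal subunit, and its 17 annotated copies summed to 10961 and 5351 expected counts against 1210 and 694 est_counts. Rpl12 itself had 10256 and 5002 against 294 and 164, and its detected copy Gm11425 had 671 and 331 against 830.0 and 469.9. The gap therefore lay on the parent and not on the detected copy.

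Most copies stood far below their parents. The median log2 ratio of pseudogene over parent TPM was -3.93 (-4.08 in replicate 1 and -3.79 in replicate 2, SD 0.20, n = 2), or 6.55% of the parent's level. Of the 182 with a parent, 157 were below it in both libraries and 22 above it. In the est_counts table the medians were -7.06 and -6.69, and 19 were above the parent. The parent was itself detected for 174 of the copies. Where copy and parent share sequence, this ratio rests on how reads were divided. For Gm43802, Gm17084 and Gm15725 the match was Gbp7, Ripk1 and Lrrc58, whose exons they overlap on the same strand, so their ratio is not one between separate loci.

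**Figure D5:**
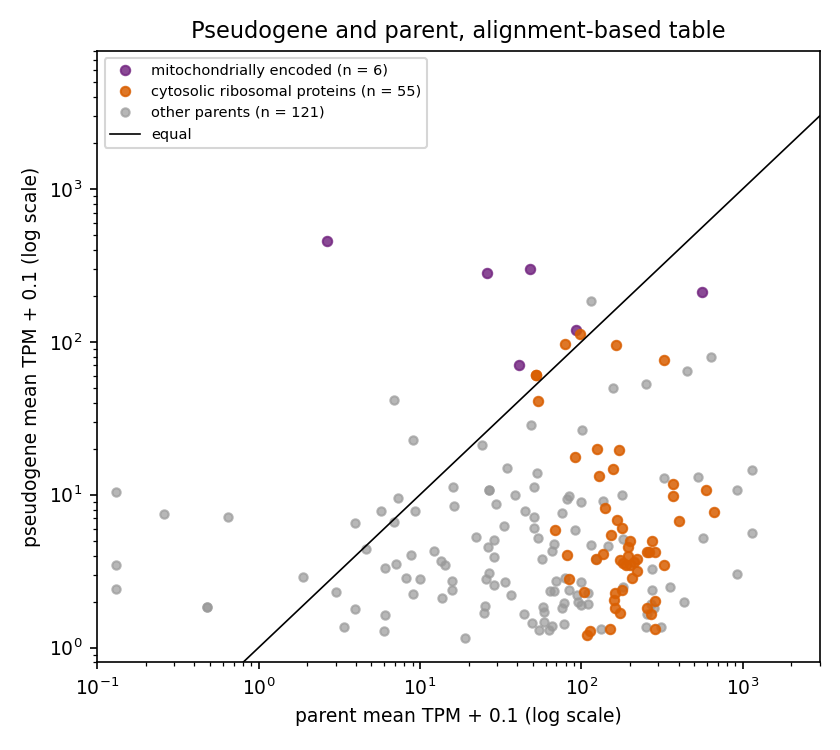
Mean TPM plus 0.1 of each detected pseudogene and of its parent in the alignment-based table, both axes on a log scale, for 182 copies with a parent. Most points lie below the line of equal values, and 22 copies exceeded the parent in both libraries.

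Ribosomal protein genes were the parents of 55 detected pseudogenes. These came from 47 of the 87 genes on the list, for which 1804 pseudogenes are annotated. Their median level was 4.115 TPM, beside a median of 173 TPM for their parents. After rescaling, 42 were at least 2-fold higher in the alignment-based table and 3 at least 2-fold lower, beside 106 and 11 of all 188 detected pseudogenes. Over all detected genes the shares were 2.24% and 0.559%. Since these ratios contain the values that chose the genes, no trait of ribosomal copies is read from the counts. Of the 55, 14 were listed at 0 in both est_counts libraries, beside 36 of the 188. In the alignment-based table Gm7536 exceeded Rpl27a, with 140.4 and 85.3 against 116 and 78.3 TPM. Rpl31-ps8 exceeded Rpl31 there, with 124.5 and 69.6 against 89.6 and 67.9. Rps23-ps1 did not exceed Rps23 there, with 115 and 75.0 against 197 and 129 TPM. In the est_counts table Rps23-ps1 was the higher one, with 116 and 49.5 against 96.5 and 45.9 TPM. Gm7536 was also higher there, with 163 and 68.8 against 55.1 and 28.4. Rpl31-ps8 had 67.5 and 21.5 against 64.7 and 34.1, so it was lower in replicate 2. For Rps12l1 the parent Rps12 also differed between tables, with 18004 and 8040 expected counts against 609 and 359.5 est_counts. The family of Rps12 was not among the 159 summed above.

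Other groups of parents were smaller. Their counts stand beside 188 detected of 13029 annotated pseudogenes, with 106 of the 188 at least 2-fold higher and 11 lower after rescaling. Over all detected genes these shares were 2.24% and 0.559%. The ratios contain the values that chose the genes, so no trait of a group is read from the counts here and below. Genes of translation factors had 9 detected pseudogenes of 178 annotated. Of the 9, 4 were at least 2-fold higher and 1 at least 2-fold lower in the alignment-based table after rescaling. In that group Gm6548, a copy of the elongation factor gene Eef1a1 with 53.3% unique words, had 1135 and 920.3 expected counts against 1251 and 1022 est_counts, close in both libraries. Eif4a-ps4, a copy of the RNA helicase gene Eif4a1, had 1180 and 839 against 2482 and 331, higher in the est_counts table in replicate 1 and in the alignment-based table in replicate 2. Chromatin proteins had 10 detected pseudogenes of 398 annotated. Of the 10, 6 were at least 2-fold higher and 1 at least 2-fold lower in the alignment-based table after rescaling. Gm15387, a copy of the high mobility group gene Hmgb1, stood at 16.4 and 13.3 TPM against 38.3 and 30.7 for its parent, while Gm4739, a copy of Hmgb2, stood at 8.23 and 4.86 against 7.31 and 6.26. RNA-binding and splicing genes had 8 detected pseudogenes of 222 annotated. Of the 8, 4 were at least 2-fold higher and 1 at least 2-fold lower in the alignment-based table after rescaling. Gm7964, a copy of Hnrnpk, had 1304 and 986 expected counts against 0 and 9.56 est_counts. The small copies Gm8186, of the spliceosome gene Snrpg, and Gm13736, of the signal recognition particle gene Srp9, stood at 7.83 and 7.70 and at 5.46 and 4.89 TPM.

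Ubiquitin and proteasome genes had 8 detected pseudogenes of 167 annotated. Of the 8, 3 were at least 2-fold higher and 2 at least 2-fold lower in the alignment-based table after rescaling. Ube2n-ps1, Gm6361 and Gm10705, copies of the ubiquitin-conjugation genes Ube2n, Ube2v2 and Ube2l3, stood at 33.3 and 24.0, at 8.86 and 6.70 and at 8.40 and 6.62 TPM. Chaperones, cyclophilins and 14-3-3 proteins had 6 detected pseudogenes of 188 annotated for that group. Of the 6, 3 were at least 2-fold higher and 1 at least 2-fold lower in the alignment-based table after rescaling. Gm4202, a copy of the 14-3-3 gene Ywhaz, had 371 and 235 expected counts against 405 and 54.6 est_counts, and Gm2423, a copy of Ywhaq, 295 and 219.7 against 2.99 and 0. Of 3 cytoskeletal copies, Gm6180 of the actin-severing protein gene Cfl1 stood at 2.44 and 2.36 TPM against 362 and 348 for its parent, and Gm5526 of the myosin light chain gene Myl6 at 1.83 and 1.59 against 322 and 245.

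Of the annotated copies of glycolytic genes 3 of 288 were detected, and of those of nuclear respiratory chain genes 4 of 215, beside 188 of 13029 over all pseudogenes. Of 150 annotated copies of Gapdh, 1 was detected, Gm7336, with 1696 and 988 expected counts against 0.00 and 46.8 est_counts. Gm5537, a copy of the glycolytic gene Pgk1, stood at 6.73 and 5.24 TPM with lower bounds of 0.29 and 0.018 TPM. Pgam1-ps2 stood at 1.35 and 1.30 TPM and was listed at 0 in the est_counts table. Among nuclear genes of the respiratory chain, Ndufb4c stood at 49.99 and 33.6 TPM against 8.47 and 5.16 for its parent Ndufb4, a complex I gene, and in the est_counts table at 28.5 and 13.3 against 5.74 and 2.76 TPM, so it was the higher one in both tables. Ferritin genes have too few annotated copies, 7, for their 0 detected ones to be read against that share.

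A fixed list of immune and interferon genes, which does not hold every such gene, had 5 detected copies, and none of these passed 2-fold between tables after rescaling. Their rescaled log2 ratios ran from -0.39 to 0.04. Gm15922, the polymorphic pseudogene, matched Pira2, a paired immunoglobulin-like receptor gene, at 99.5% identity and stood at 8.15 and 7.21 TPM against 49.5 and 40.1 for Pira2. Gm15931 stood at 3.57 and 3.84 TPM against 122 and 124 for its parent Pirb, an inhibitory receptor gene. Ifi203-ps stood at 2.60 and 1.63 TPM against 106 and 80.05 for Ifi203, and Gm5970 at 1.99 and 1.72 against 75.7 and 80.6 for the interferon-inducible GTPase gene Iigp1. Gm43802, within Gbp7, stood at 9.33 and 10.4 TPM.

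Some of the highest copies consisted mostly of words of their own. Gm12250, without a parent and with 100.0% unique words, stood at 35.9 and 41.6 TPM, from 4240 and 4005 expected counts against 6037 and 6027 est_counts, and is listed by RefSeq as protein-coding. Gm6545, with 99.3% unique words, stood at 21.3 and 28.5 TPM, and Gm18853, which has no parent either but only 0.11% unique words, at 4.22 and 2.75. Bambi-ps1, at 88.6% identity to Bambi, a pseudoreceptor gene of the transforming growth factor beta family, stood at 9.34 and 5.48 TPM against 0.19 and 0.13 for Bambi, and in the est_counts table at 7.86 and 3.89 against 0.10 and 0.06 TPM. The order was the same in both tables. Gm10557, Gm21811 and Gm21092, all matching the cadherin gene Cdh11, stood at 11.9 and 8.88, at 3.18 and 3.61 and at 2.56 and 2.07 TPM against 0.04 and 0.02 for Cdh11. Gm1966 stood at 4.12 and 5.14 TPM against 61.65 and 73.05 for Gvin1, a large interferon-inducible GTPase gene. Within the class above 50% unique words, the 2 at least 2-fold higher in the alignment-based table were Gm14328 and Gm6485, with 53.4% and 53.8%.

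Annotation of the loci was mixed. By symbol, RefSeq lists 133 of the detected pseudogenes as pseudogenes, 23 as transcribed pseudogenes and 6 as protein-coding, and 26 did not match. An exon of another gene on the same strand overlapped 13 (6.91%, against 1.83% of all annotated pseudogenes), and an exon on the opposite strand 10 (5.32% against 2.54%). Another 51 lay only in introns, and 115 overlapped no gene. Gm12543, the highest transcribed processed pseudogene at 2.69 and 2.81 TPM and a copy of the sorting nexin gene Snx2, overlaps an exon of Snx30, and Gm3608, of the plain class, stood at 1.40 and 1.36 TPM. Whether counting used strand is not given in the sources used here, so reads of overlapping genes cannot be told apart.

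The est_counts table also held pseudogenes that were not in the alignment-based list. Of its 89, 20 were not detected there, and 17 of these were listed at 0 expected counts in both libraries. Gm12896 and Gm12895, processed pseudogenes of 226 bases on chromosome 4 without a parent, had 1915450 and 3185920 and 1915450 and 3184690 est_counts in replicates 1 and 2. Together they took 30.9% and 42.6% of the est_counts table's TPM and 5.22% and 10.4% of its counts, since TPM weighs short transcripts more, yet both were at 0 in the alignment-based table. They share 224 bases in 1 run. The whole transcript of Gm12896 (chr4:122122847-122123072, plus strand), 72.1% G and C, is shown because these letters carry that share.
Gm12896: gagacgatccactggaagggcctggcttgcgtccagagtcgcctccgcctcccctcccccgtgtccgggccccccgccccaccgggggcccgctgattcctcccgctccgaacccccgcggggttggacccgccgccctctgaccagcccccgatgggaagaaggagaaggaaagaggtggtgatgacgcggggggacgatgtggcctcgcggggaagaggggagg
Next by TPM were Gm19220 with 4095 and 5023 est_counts, Gm45647 with 112 and 71.2, Gm11225 with 1406 and 910.0 and Vamp7-ps with 636 and 481, all at 0 in the alignment-based table. Vamp7-ps and Gm19220 have 100.0% and 99.6% unique words.

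Between replicate 2 and replicate 1, 185 detected pseudogenes had enough counts for a two-sided exact binomial test on TMM-scaled libraries, called at a Benjamini-Hochberg adjusted p under 0.05 over 13286 genes and at least 2-fold. The test compares these libraries, not conditions, and covers counting error only. Higher in replicate 2 were 4 of them (2.16%) and 2.98% of all genes tested, and lower were 5 of them (2.70%) and 2.47%. The choice needed 1 TPM in both libraries, which limits such differences. Nothing is therefore read from these counts against the background. In the est_counts table, tested the same way, 4 of 106 were higher, 3.77% against 4.49% of all genes tested, but 27 were lower, 25.5% against 2.77%. The largest calls were 2 copies of Rpl15 that went opposite ways. Rpl15-ps3 had 272 expected counts in replicate 2 and 54.0 in replicate 1 (log2 ratio 2.70), and Gm4294 had 36.7 expected counts in replicate 2 and 294 in replicate 1 (-2.60), while their sum was 309 in replicate 2 and 348 in replicate 1. Rpl15-ps3 was listed at 0 in both est_counts libraries. Also higher in replicate 2 of the alignment-based table were Gm28438 at a log2 ratio of 2.04, Gm10222 at 1.10 and Gm10182, a copy of the nucleosome-binding protein gene Hmgn2, at 1.04. In the est_counts table Gm10182 went the other way, with 43.9 in replicate 2 and 291 in replicate 1. Gm28438 had 745 and 666 there, and Gm10222 was at 0 in both. Lower in the alignment-based table were Gm10335 (parent Rpl23a) at -1.68, Gm10221 (Atp5l) at -1.42, Gm7730 (Nme2) at -1.09 and Mpc1-ps at -1.05. In est_counts Gm10335 had 8.07 in replicate 2 and 54.2 in replicate 1, and Gm7730 had 45.4 and 122. Gm10221 and Mpc1-ps were at 0 in both est_counts libraries. TPM plus 1 stayed within 2-fold between libraries for 96.3% of detected pseudogenes and 98.6% of all detected genes. Both sets had passed 1 TPM in both libraries, and adding 1 shrinks ratios of low genes. These shares therefore say little about how well the replicates match.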

How the data were processed

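Cytosolic total RNA of 2 macrophage libraries was quantified by the authors in 2 ways on the GENCODE M21 annotation. Per the text deposited beside the tables, the alignment-based tables came from transcriptome alignments on mm10 and the est_counts tables from the reads and an index. Quantifiers, versions and strandedness: not given in the sources used here. The deposited values are expected counts (estimated counts, not whole numbers), TPM, and bounds of a TPM interval, treated as a score because its level is not given. Expected counts sum to 64181194 and 49424611 per library, and counting error limits low genes most.

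From these, transcript values of the est_counts tables were summed per gene. Parents were found with BLAST+ 2.17.0 (blastn, word size 16, e-value 1e-10, plus strand, at least 80% identity over 50%), and uniqueness was counted in 31-base words. Ratios used log2(TPM + 0.1), which understates changes of low genes, and family sums log2(count + 1). Replicate 2 over replicate 1 used rounded expected counts, TMM factors from edgeR 4.0.16, and exact binomial tests in R 4.3.3 over genes with a mean count of at least 10, tested on simulated data first. Tables were joined with Python 3.11.15, pandas 2.3.3 and numpy 2.4.6, and drawn with matplotlib 3.10.9. Alternatives changed the TPM minimum, the table, the scale, the pseudocount, the parent rule, the normalization (DESeq2 1.42.0 size factors), the filter and the replicate. Members and lists were chosen with earlier results of these data known, and the lists of mitochondrially encoded and ribosomal genes were extended after values were seen. Genes named are the 20 highest, the 8 largest and 8 smallest table ratios with a mean count of at least 10 in either table, up to 3 highest per parent group of 3 or more, 4 on each side of the threshold, the 6 highest in the est_counts table alone, up to 6 called per direction between replicates, the highest per biotype, and their parents. Of the 188 members, 64 are named by it. Gm11425, Gm14536, Gm15027, Gm17084, Gm15725, Ifi203-ps, Gm5970, Gm1966, Bambi-ps1, Gm10557, Gm21811, Gm21092, Gm14328 and Gm6485 fall outside it and were chosen after their values were seen.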

Additional observations from a re-analysis of the deposited data

How the results depend on the processing

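No paired analysis was possible because the study has 1 group. Of 43 alternatives, 24 stayed near the value reported, 18 moved and 1 reversed; 8 of them, such as leaving out the mitochondrial copies, were chosen after seeing the data. Near was a wide class for the 188 detected pseudogenes. It held 282 at 0.5 TPM, 258 by rescaled est_counts-table TPM and 144 with interval lower bounds of at least 1 TPM. It also held 214 to 217 with 1 replicate left out. The 188 moved to 70 at 5 TPM, 407 at 10 expected counts, 89 by est_counts-table TPM and 373 on rescaled TPM. The median log2 ratio of tables, 3.24, was 1.96 on CPM, 1.33 with a pseudocount of 1, 3.02 rescaled, 0.36 for pseudogenes chosen in the est_counts table and -0.59 for these on rescaled TPM, the 1 reversal, and 0.96 for those with at least 10 counts in both tables, and 3.02 to 3.29 with 1 replicate left out. The 121 at least 2-fold higher became 12 for pseudogenes chosen in the est_counts table, 3 for these on rescaled TPM and 39 with at least 10 counts in both tables, and 121 to 151 with 1 replicate left out. The median log2 ratio to the parent, -3.93, was -6.84 in the est_counts table, -3.62 with a pseudocount of 1 and -5.42 for the 43 parents named by symbol, and -4.08 to -3.79 with 1 replicate left out. Family sums lay between -0.11 and -0.08. Calls between replicates, 9, became 3 with a biological coefficient of variation of 0.2 and 31 in the est_counts table. The causes of these moves were not tested. Depth limits short copies most, since 4 members had a mean under 10 expected counts.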
